A study of Homo sapiens with 9 samples.

Results

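Glycolysis and the transcriptional response to low oxygen were examined as 43 genes chosen by name from the 60649 genes of the count table. They comprise glucose transporters and glycolytic enzymes, the enzymes and transporters that handle pyruvate and lactate, the hypoxia-inducible factor (HIF) subunits and their regulators, and genes known to be induced when oxygen is low. The cells were MDA-MB-231, a human cell line from a breast cancer that lacks hormone receptors, and 9 RNA sequencing libraries fell into 3 groups of 3. The control group carried the vector pLKO-GFP (PLKO-GFP in the labels), and the others carried the hairpin constructs shAHR#2 or shAHR#3 against AHR, the gene of the aryl hydrocarbon receptor. All groups were puromycin-selected pools of lentivirally transduced cells grown as proliferating cultures in the same serum-containing medium under humidified air with added carbon dioxide, and no low-oxygen treatment is named. Nothing in the labels says whether replicates came from separate cultures, so p-values measure the spread between these libraries, which may be technical. Which of the hairpin sequences in the methods corresponds to which label was not settled here.

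In glycolysis glucose is phosphorylated, split and oxidized to pyruvate, and cancer cells often turn that pyruvate into lactate even when oxygen is present. The HIF alpha subunits HIF1A and EPAS1 are made continuously, and with oxygen available the prolyl hydroxylases of the EGLN family mark them for the ubiquitin ligase subunit VHL and for destruction, while HIF1AN hydroxylates them at another site and blocks coactivator binding. When oxygen falls, the alpha subunits persist, pair with ARNT and bind a short DNA core to switch on glycolytic enzymes, lactate export and a set of stress genes. ARNT is also the partner that AHR needs to bind DNA.

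The HIF core is ACGTG or GCGTG, and GCGTG is also the core of the AHR-ARNT site, so both were searched on both strands in RefSeq promoter windows (250 bases before to 50 after the transcription start, GRCh38.p14). Windows were found for 38 of the 43 genes. At least 1 core was present in 27 of the 38 (71.1%), against 63.2% of 10529 windows of genes tested for expression and 48.4% of all 35116 windows. ACGTG was present in 15 (39.5%, against 26.8% of tested genes) and GCGTG in 19 (50%, against 50.7%). The stretches below come from a chosen part of the genes that rose with both constructs (ALDOC, PFKFB4, ADM, BNIP3 and LDHA) or moved in opposite directions (EPAS1 and CA12). Only genes with a match are shown, and other rising genes with a match, among them HK2, GAPDH and HIF1A, are left out. Of the 20 genes with a window that rose with both constructs, 15 held a core (75%), and EGLN3, TPI1, SLC16A3, PDK1 and PFKP held none. Of the other 18 genes with a window, 12 held a core (66.7%), and GCGTG was present in 50% of either set. Each stretch is read 5′ to 3′ along the gene's strand, lies before the RefSeq start and outside annotated exons of that gene, and has the cores in capitals, CACGT and CACGC being the same cores on the other strand. CACGTG, which appears in the BNIP3 and LDHA stretches, holds ACGTG on both strands at overlapping positions and is counted there as 2 matches. A stretch is only part of its window, and for ALDOC, LDHA and CA12 it leaves out matches. The ALDOC window holds 3 matches to ACGTG and 2 to GCGTG, and its stretch shows only 1 match to GCGTG. The ACGTG matches of ALDOC lie on either side of that stretch. For GCGTG, the LDHA window holds 1 match and its stretch 0, and the CA12 window holds 2 and its stretch 1.
ALDOC, chr17:28576949-28577045, minus strand: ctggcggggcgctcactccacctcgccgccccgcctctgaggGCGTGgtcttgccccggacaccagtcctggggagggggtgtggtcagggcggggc
PFKFB4, chr3:48556940-48556982, minus strand: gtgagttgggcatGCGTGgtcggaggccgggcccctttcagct
ADM, chr11:10304947-10305001, plus strand: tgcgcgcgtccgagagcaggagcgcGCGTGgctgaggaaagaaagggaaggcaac
BNIP3, chr10:131981998-131982091, minus strand: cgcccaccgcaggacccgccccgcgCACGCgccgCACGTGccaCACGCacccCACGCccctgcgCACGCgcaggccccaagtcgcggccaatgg
LDHA, chr11:18394378-18394527, plus strand: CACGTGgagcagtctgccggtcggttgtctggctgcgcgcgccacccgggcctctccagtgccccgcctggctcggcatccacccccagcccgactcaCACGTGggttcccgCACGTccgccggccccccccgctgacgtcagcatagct
EPAS1, chr2:46297265-46297319, plus strand: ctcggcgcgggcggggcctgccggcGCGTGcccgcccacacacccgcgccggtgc
CA12, chr15:63382051-63382096, minus strand: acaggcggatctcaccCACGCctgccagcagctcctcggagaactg

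The PFKFB4 and EPAS1 stretches lie within the genes as GENCODE release 44 draws them, which start farther upstream, and the other stretches lie outside the gene bodies. BNIP3 has the densest group, with 4 matches to GCGTG and 2 to ACGTG in 94 bases. A match is a description of the letters only, and binding was not measured.

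Total counts per library ranged from 15991396 to 20374460. Levels are given as CPM, the reads of a gene relative to the library size scaled with TMM factors. SE stands for the standard error of a log2 fold change, and calls are those of edgeR's quasi-likelihood test over the 14274 genes that passed the filter on low counts, at a Benjamini-Hochberg adjusted p under 0.05. AHR itself was at 114 to 121 CPM in pLKO-GFP libraries, 40.4 to 42.5 under shAHR#2 and 44.5 to 52.1 under shAHR#3, log2 changes of -1.50 (SE 0.048) and -1.31 (SE 0.046). ARNT (46.8 CPM in pLKO-GFP) was 0.33 higher under shAHR#2 and 0.21 higher under shAHR#3 in log2 (adjusted p = 4.06e-07 and 4.45e-04, edgeR). Of the markers of the labelled line, VIM, KRT8, KRT18, CD44 and EGFR were each at 186 CPM or more in every library, ESR1 had at most 4 reads and PGR none. EGFR (log2 change -1.34 under shAHR#2 and -0.53 under shAHR#3) and CD44 (-0.23 and -0.49) were called lower, and VIM (0.56 and 0.34) higher. KRT8 and KRT18 were called against the control only under shAHR#3, as higher by 0.40 and 0.31. ERBB2, listed with ESR1 and PGR as a receptor low in such a line, ranged from 60.0 to 75.7 CPM. It was called higher under shAHR#3 (0.20, adjusted p = 1.5e-04, edgeR). A list of 7 markers of blood, endothelial and smooth muscle cells summed to 2.90 to 3.78 CPM in pLKO-GFP, 13.2 to 15.3 under shAHR#2 and 13.8 to 15.1 under shAHR#3. PECAM1 made up most of that sum, CD3E was at 0 in every library and the others were at 33 reads or fewer; 2 of the 7 passed the test as higher with each construct, and their part in the results was not tested.

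Most of the glycolysis and hypoxia genes were higher in the AHR-depleted cells. Of the 43 genes 42 passed the filter on low counts, and SLC16A1 did not. With shAHR#2, 27 of the 42 (64.3%) passed the test as higher and 8 (19.0%) as lower, while among all genes tested 65.8% were called, 32.6% as higher and 33.2% as lower. With shAHR#3, 27 (64.3%) were higher and 5 (11.9%) lower, against 54.4% called among all genes, 26.9% higher and 27.5% lower. The median log2 fold change of the 42 was 0.40 under shAHR#2 and 0.26 under shAHR#3, and that of all genes tested was -0.0032 and -6.9e-05. Changes of at least 1 on the log2 scale passed the test in 7 of the 42 under shAHR#2, against 11.8% of all genes tested, and in 2 of the 42 under shAHR#3, against 6.73%. In such bulk libraries fewer cells with a transcript and less of it per cell cannot be told apart. The plot of log2 fold changes by role gives each gene with its SE.

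**Figure D1:**
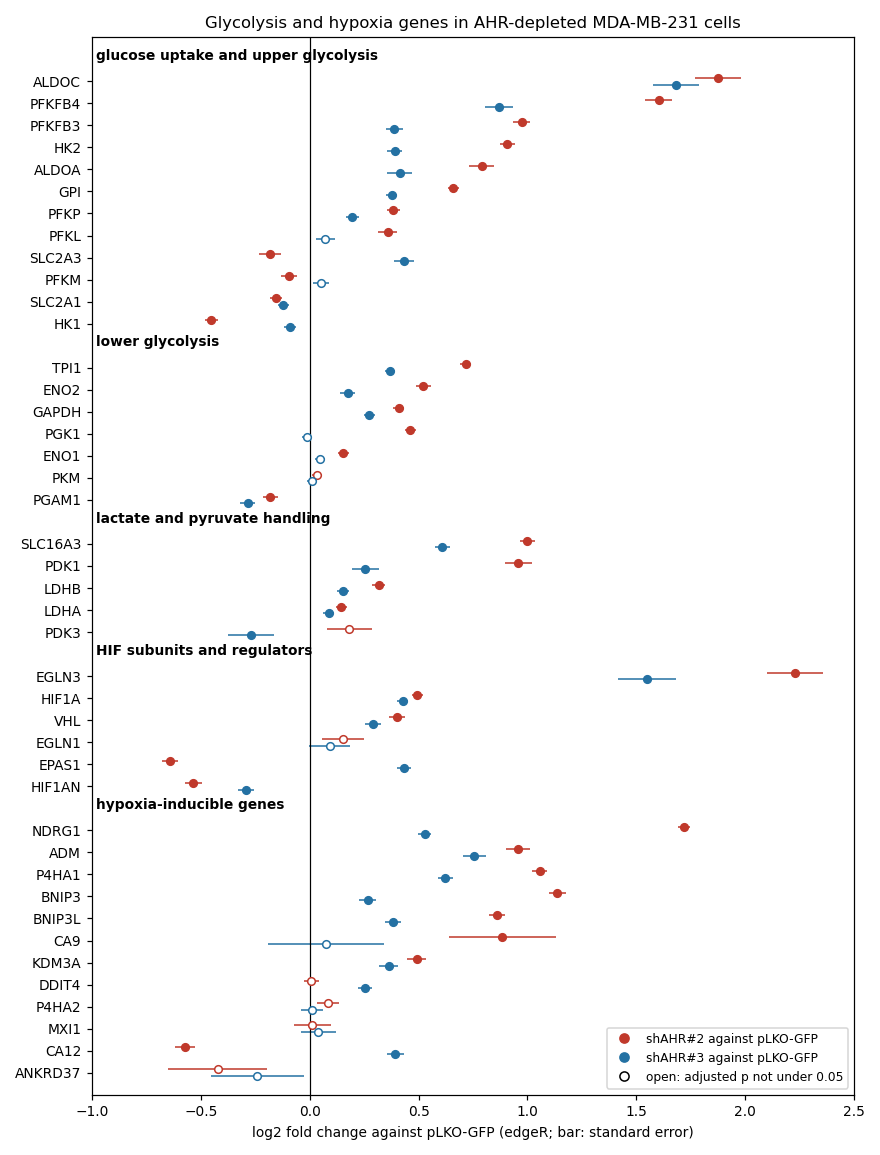
Log2 fold change against pLKO-GFP of the 42 tested genes, grouped by role and ordered by the mean of both constructs (red, shAHR#2; blue, shAHR#3; bars, standard errors from edgeR; open points, adjusted p not under 0.05). Most points lie to the right of 0, EGLN3 under shAHR#2 is farthest right at 2.23, and EPAS1, CA12 and SLC2A3 have the constructs on opposite sides of 0.

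Genes called in the same direction with both constructs numbered 23 higher (21.9% of all genes tested were) and 4 lower (22.6% of all), and 3 were called in opposite directions (2.03% of all). Both comparisons use the same control libraries, so these calls are not independent, and the counts serve only to choose the genes described below. By role, 7 of the 12 genes of glucose uptake and upper glycolysis were higher with both constructs, 3 of 7 in lower glycolysis, 4 of 5 tested genes of lactate and pyruvate handling, 3 of 6 HIF subunits and regulators, and 6 of 12 hypoxia-inducible genes.

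Summed over the 15 enzymes from hexokinase to pyruvate kinase, glycolytic transcripts came to 1.01% of the TMM-scaled library size in pLKO-GFP cells, 1.24% under shAHR#2 and 1.12% under shAHR#3. The 12 hypoxia-inducible genes summed to 836.5 ± 9.60 CPM in pLKO-GFP, 1518 ± 9.96 under shAHR#2 and 1091 ± 10.2 under shAHR#3 (SD, n = 3 each). That is 181% and 130% of the control mean, the highest ratio of any role group for either construct. NDRG1 had the highest level of the 12 under each construct, with means of 141 CPM in pLKO-GFP, 464 under shAHR#2 and 203 under shAHR#3. With each construct 4 of the 12 genes were not called, and CA12 fell under shAHR#2. Lower glycolysis, whose sum is mostly GAPDH, PKM and ENO1, was at 122% and 110%. The HIF subunits and regulators, whose sum is mostly HIF1A, were at 123% and 128%. These sums are descriptions, and no test was made of them.

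**Figure D2:**
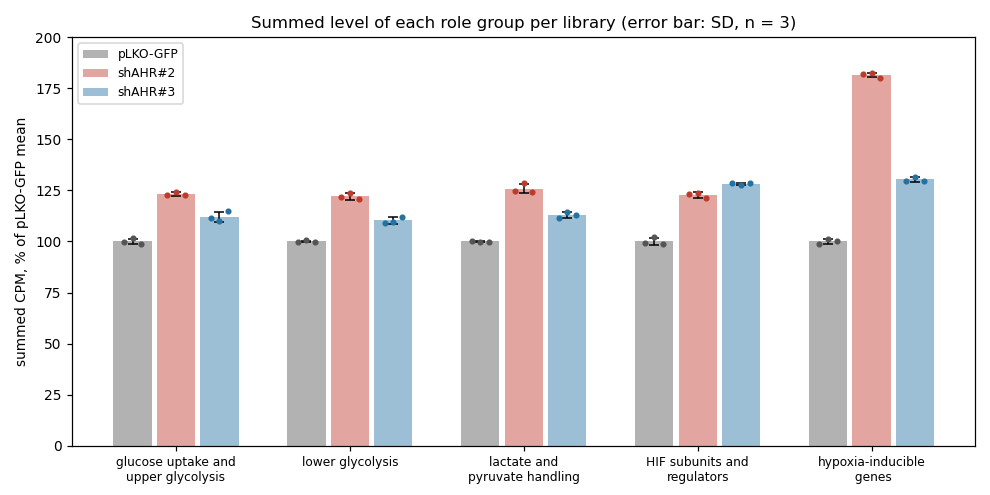
Summed CPM of each role group in each library as a percentage of the pLKO-GFP mean (bars, group means; points, libraries; error bars, SD, n = 3). Hypoxia-inducible genes stand at 181% under shAHR#2 and 130% under shAHR#3, while the glycolytic and lactate groups lie between 110% and 126%, and in each group no shAHR library reaches down to a control library.

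Of the glucose transporters among the 43 genes, SLC2A1 (GLUT1) and SLC2A3 (GLUT3), neither rose with both constructs, and glucose uptake was not measured. SLC2A1 (chr1:42925353-42958893 of GRCh38, as are the gene positions that follow) was at 373, 391 and 371 CPM in pLKO-GFP libraries, 342, 343 and 334 under shAHR#2 and 345, 345 and 353 under shAHR#3. Its shAHR libraries all lay below the control libraries, by -0.16 (SE 0.027, adjusted p = 4.51e-06) and -0.12 (SE 0.027, adjusted p = 2.06e-04). The 50 tested genes on each side of it on chromosome 1 had a median log2 fold change of -0.17 and -0.16, and relative to that median SLC2A1 was 0.015 and 0.039 higher. SLC2A3 was at 48.3, 49.3 and 48.5 CPM in pLKO-GFP, 43.4, 40.2 and 44.9 under shAHR#2, and 65.5, 67.0 and 65.0 under shAHR#3. The groups did not overlap: the gene fell under shAHR#2 (-0.18, adjusted p = 0.00164) and rose under shAHR#3 (0.43, adjusted p = 3.86e-10). Its neighbours on chromosome 12 had medians of 0.32 and 0.29, and relative to them it stood at -0.51 and 0.15.

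Hexokinases, which trap glucose by phosphorylation, moved apart. HK2, the inducible form, ranged from 83.1 to 86.6 CPM in pLKO-GFP, 157 to 163 under shAHR#2 and 109 to 112 under shAHR#3, a rise of 0.91 and 0.39 in log2 (adjusted p = 2.37e-23 and 5.32e-12). HK1, the widely expressed form, was at 255, 255 and 247 CPM in pLKO-GFP, 190, 181 and 182 under shAHR#2 and 234, 234 and 243 under shAHR#3. It fell by 0.45 and 0.09 (adjusted p = 4.63e-16 and 0.00753). Without shAHR#3 replicate 1 the latter was no longer called (adjusted p = 0.0504). HK1 lies on chromosome 10 among genes whose median was -0.47 under shAHR#2 and -0.30 under shAHR#3, so relative to its neighbours it was 0.016 and 0.21 higher, the opposite direction. On the TPM scale, which also divides by exon length, HK1 made up 71.9% ± 0.776 of the 2 hexokinases in pLKO-GFP cells, 49.9% ± 0.198 under shAHR#2 and 64.7% ± 0.787 under shAHR#3 (SD, n = 3 each).

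PFKFB3 and PFKFB4 make a fructose bisphosphate that activates phosphofructokinase, and both rose with each construct. PFKFB2, another such enzyme outside the 43 genes, fell by 1.24 and 0.33 (adjusted p = 5.97e-19 and 9.52e-06), and was named after its values were seen. PFKFB4 (chr3:48517684-48562015) was at 18, 18.3 and 18.5 CPM in pLKO-GFP libraries, 53.8, 55.8 and 57.2 under shAHR#2, and 34.9, 31.9 and 33.4 under shAHR#3. All 3 groups were separate, with log2 changes of 1.60 (SE 0.061, adjusted p = 2.34e-23) and 0.87 (SE 0.064, adjusted p = 2.01e-14). PFKFB3 went from 62.1 to 64.0 CPM in pLKO-GFP to 123 to 126 and 80.1 to 87.0, a rise of 0.97 and 0.39 (adjusted p = 1.41e-22 and 1.78e-10). Of the phosphofructokinase genes, PFKP, the platelet form, rose by 0.38 and 0.19 (adjusted p = 5.66e-14 and 7.66e-07). PFKL, the liver form, rose by 0.36 under shAHR#2 (adjusted p = 6.94e-09) and was at 0.07 under shAHR#3 (adjusted p = 0.173). PFKM, the muscle form, was lower under shAHR#2 by -0.10 (adjusted p = 0.0243), and lost that call with DESeq2 (adjusted p = 0.0621) and without pLKO-GFP replicate 2, shAHR#2 replicate 1 or shAHR#2 replicate 2 (adjusted p = 0.117, 0.192 and 0.0574).

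GPI, which converts glucose phosphate to fructose phosphate, rose by 0.66 and 0.38 (adjusted p = 8.07e-23 and 4.44e-15). ALDOC, the brain form of the aldolase that splits fructose bisphosphate, had the largest rise of any glycolytic enzyme. It was at 4.97, 4.59 and 4.86 CPM in pLKO-GFP, 18.4, 16.2 and 18.2 under shAHR#2, and 16.3, 14.2 and 15.9 under shAHR#3. The control libraries lay far below the others, and the shAHR groups overlapped. Its log2 fold changes were 1.87 (SE 0.11, adjusted p = 4.01e-18) and 1.68 (SE 0.11, adjusted p = 2.26e-16), while the constructs differed by -0.19 (SE 0.086, adjusted p = 0.0716; 0.0405 without shAHR#2 replicate 2). ALDOA, the main aldolase of most cells, rose by 0.79 and 0.41 (adjusted p = 5.99e-15 and 1.24e-07). Its count is uncertain, since another protein-coding gene shares 42.8% of its exon bases on the same strand, and it stood at 38.6 TPM in the control.

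Of the 7 genes of lower glycolysis, TPI1, GAPDH and ENO2 rose with both constructs and PGAM1 fell with both. The 3 that rose lie close together on chromosome 12, where TPI1 starts at 6867119 and ENO2 at 6913745. Under shAHR#2 and shAHR#3 their neighbours had medians of 0.267 and 0.235 around TPI1, and 0.270 and 0.266 around ENO2. Whether these 3 rises are separate was not tested. GAPDH (chr12:6534512-6538374) had the highest level of the 43 genes per exon length, 5140 ± 185 TPM in the control (SD, n = 3). In CPM it was at 3340, 3350 and 3310 in the control libraries, 4410, 4500 and 4360 under shAHR#2, and 3990, 4000 and 4110 under shAHR#3, with no overlap between any groups. GAPDH rose by 0.41 (SE 0.024, adjusted p = 1.35e-17) and 0.27 (SE 0.024, adjusted p = 2.10e-12), or by 32.7% and 20.9%. Its neighbours on chromosome 12 had medians of 0.24 and 0.23, which leaves 0.17 and 0.045 relative to them. TPI1, the triose phosphate isomerase, rose by 0.72 and 0.37 (adjusted p = 1.44e-24 and 2.19e-15).

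PGK1, which makes the first ATP of the pathway, rose by 0.46 under shAHR#2 (adjusted p = 7.92e-19) and stood at -0.01 under shAHR#3 (adjusted p = 0.694), and the constructs differed by -0.48 (adjusted p = 1.72e-18). PGAM1, the phosphoglycerate mutase, was at 190, 196 and 198 CPM in pLKO-GFP, 167, 185 and 164 under shAHR#2, and 161, 158 and 160 under shAHR#3. It fell with each construct, by 0.18 and 0.28 (adjusted p = 2.25e-05 and 6.38e-09). Relative to its chromosome 10 neighbours it was 0.25 higher under shAHR#2 and stood at -0.07 under shAHR#3, where their median was -0.22. ENO2, the neuronal enolase, rose by 0.52 and 0.17 (adjusted p = 5.31e-16 and 5.33e-05), although under shAHR#3 it was -0.09 relative to its neighbours. ENO1, the main enolase, rose by 0.15 under shAHR#2 (adjusted p = 5.68e-07; -0.08 relative to its neighbours) and was at 0.05 under shAHR#3 (adjusted p = 0.103, and 0.0455 with DESeq2). PKM, the pyruvate kinase, was at 2270 CPM in each control library, 2300 to 2360 under shAHR#2 and 2260 to 2320 under shAHR#3, and no test called it (adjusted p = 0.207 and 0.758).

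Of the 5 tested lactate and pyruvate genes among the 43, 4 rose with both constructs. SLC16A3 (MCT4), the lactate exporter typical of glycolytic cells, ranged from 181 to 193 CPM in pLKO-GFP, 370 to 385 under shAHR#2 and 275 to 303 under shAHR#3. The groups were separate, with log2 changes of 1.00 (SE 0.032, adjusted p = 1.54e-25) and 0.61 (SE 0.033, adjusted p = 2.31e-18). SLC16A1 (MCT1), the other main lactate transporter, had at most 2 reads in any library and was not tested. LDHA, which reduces pyruvate to lactate, was at 984, 981 and 975 CPM in pLKO-GFP, 1080, 1110 and 1060 under shAHR#2, and 1030, 1060 and 1030 under shAHR#3. It rose by 0.14 (SE 0.025, adjusted p = 4.18e-06) and 0.09 (SE 0.025, adjusted p = 0.00313), and stood at -0.0078 and 0.0079 relative to its neighbours. LDHB, the other lactate dehydrogenase subunit, whose exons are shared for 33.4% with a same-strand gene at 0 CPM, rose by 0.32 and 0.15 (adjusted p = 2.12e-12 and 1.95e-05), and was -0.026 and -0.072 relative to its neighbours. In TPM, LDHA was 66.9% ± 0.278 of both genes in pLKO-GFP cells, 64.2% ± 0.344 under shAHR#2 and 65.9% ± 0.228 under shAHR#3 (SD, n = 3 each). Because of the shared exon bases the LDHB count is uncertain, and so is this share.

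The pyruvate dehydrogenase kinases switch off pyruvate dehydrogenase and so hold pyruvate back from oxidation in the mitochondrion. PDK1 ranged from 22.6 to 23.9 CPM in pLKO-GFP, 44.4 to 46.2 under shAHR#2 and 27.0 to 29.3 under shAHR#3, and rose by 0.96 and 0.26 (adjusted p = 1.56e-16 and 7.86e-04). PDK3 was at 0.18 under shAHR#2 (adjusted p = 0.117) and -0.27 under shAHR#3 (adjusted p = 0.0283), in groups that overlapped. The latter call was lost with DESeq2 (adjusted p = 0.0606) and without pLKO-GFP replicate 1 or 3 or shAHR#3 replicate 1 or 3 (adjusted p from 0.0513 to 0.277). The former was gained without pLKO-GFP replicate 3 or shAHR#2 replicate 1 (adjusted p = 0.0200 and 0.0272).

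Of the HIF alpha subunits, HIF1A rose with both constructs and EPAS1 did not. HIF1A (chr14:61695513-61748259) was at 676, 693 and 665 CPM in pLKO-GFP libraries, 967, 962 and 936 under shAHR#2, and 911, 914 and 910 under shAHR#3. Every shAHR library lay above every control library, with log2 changes of 0.49 (SE 0.025, adjusted p = 1.68e-19) and 0.43 (SE 0.025, adjusted p = 3.19e-17). HIF1A-AS3, an antisense transcript that overlaps 5.80% of its exon bases, was at 2.75 CPM in pLKO-GFP, 0.146 under shAHR#2 and 0.352 under shAHR#3. EPAS1 (HIF2A; chr2:46293667-46386697) was at 140, 149 and 146 CPM in pLKO-GFP, 88.7, 96.0 and 93.8 under shAHR#2, and 194, 193 and 199 under shAHR#3. The 3 groups were separate and in opposite order around the control: EPAS1 fell by 0.64 under shAHR#2 (SE 0.036, adjusted p = 3.70e-18) and rose by 0.43 under shAHR#3 (SE 0.033, adjusted p = 4.80e-14). In TPM, HIF1A was 86.9% ± 0.314 of both alpha subunits in pLKO-GFP cells, 93.6% ± 0.301 under shAHR#2 and 86.8% ± 0.221 under shAHR#3 (SD, n = 3 each).

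Among the regulators, EGLN3, the prolyl hydroxylase that HIF itself induces, had the largest mean rise of the 42 genes. EGLN3 (chr14:33924227-34462774) was at 2.54, 3.70 and 2.79 CPM in pLKO-GFP libraries (45 to 74 reads), 13.9, 14.6 and 14.0 under shAHR#2, and 9.16, 9.11 and 8.35 under shAHR#3. The groups were separate, with log2 changes of 2.23 (SE 0.13, adjusted p = 6.04e-18) and 1.55 (SE 0.13, adjusted p = 1.77e-12), or 4.69-fold and 2.93-fold. EGLN1, the main oxygen-sensing hydroxylase, was at 0.15 and 0.09 (adjusted p = 0.158 and 0.424), and its count is uncertain because another protein-coding gene shares 55.8% of its exon bases on the same strand. VHL rose by 0.40 and 0.29 (adjusted p = 5.09e-12 and 1.33e-08). HIF1AN, the asparaginyl hydroxylase that limits HIF activity, was at 108, 103 and 103 CPM in pLKO-GFP, 71.8, 71.3 and 73.5 under shAHR#2, and 86.1, 84.1 and 86.1 under shAHR#3. It fell by 0.53 (SE 0.038, adjusted p = 4.90e-15) and 0.29 (SE 0.037, adjusted p = 1.50e-08), and its neighbours on chromosome 10 had medians of -0.37 and -0.22.

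**Figure D3:**
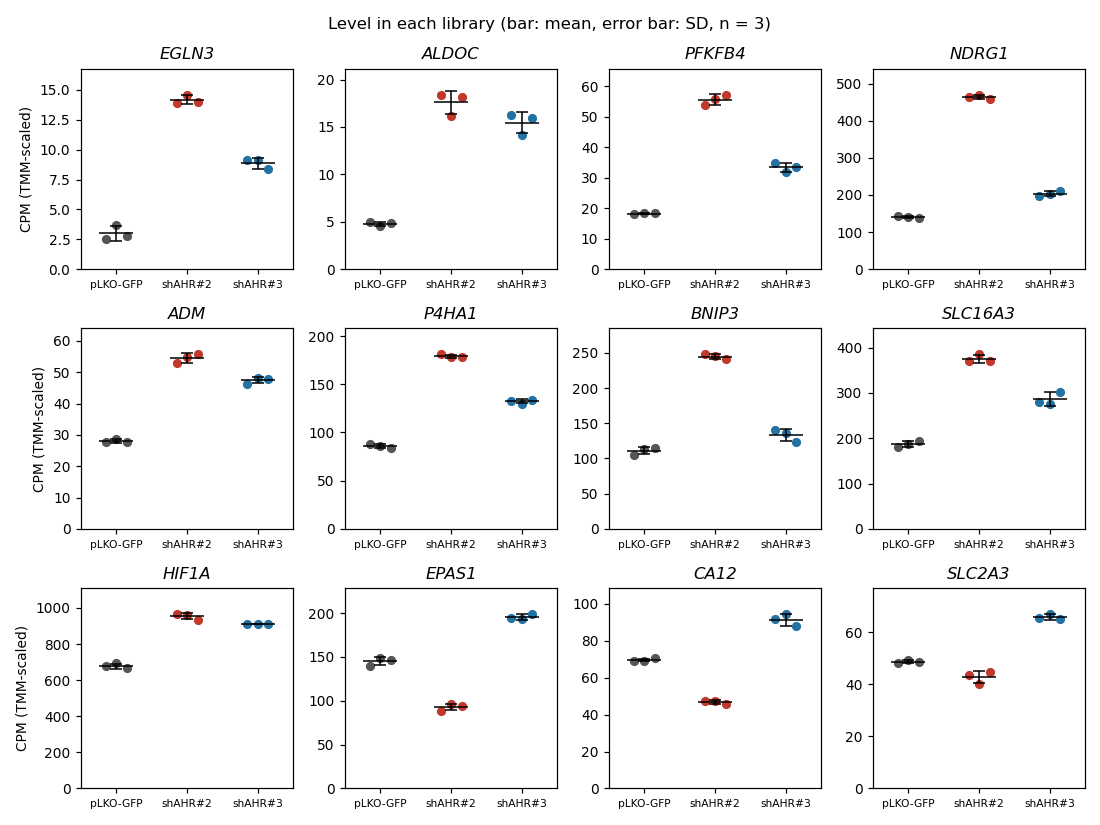
CPM in each library for 12 genes (grey, pLKO-GFP; red, shAHR#2; blue, shAHR#3; horizontal bar, mean; error bar, SD, n = 3; each axis starts at 0). The first 9 genes are above the control with both constructs, and EPAS1, CA12 and SLC2A3 lie below it under shAHR#2 and above it under shAHR#3.

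Of the 12 hypoxia-inducible genes, 7 rose (32.6% of all genes tested did) and 1 fell (33.2% of all) under shAHR#2, and 8 rose (26.9% of all) under shAHR#3. NDRG1, a stress-response gene strongly induced by hypoxia, was at 143, 141 and 139 CPM in pLKO-GFP, 463, 470 and 458 under shAHR#2, and 198, 202 and 210 under shAHR#3. The 3 groups were far apart, with log2 changes of 1.72 (SE 0.029, adjusted p = 1.09e-34) and 0.53 (SE 0.030, adjusted p = 1.28e-17), or 3.29-fold and 1.44-fold. ADM, the vasodilator peptide adrenomedullin, was at 27.8, 28.8 and 27.6 CPM in pLKO-GFP, 52.9, 55.0 and 55.7 under shAHR#2, and 46.3, 48.2 and 47.8 under shAHR#3. It rose by 0.96 (SE 0.054, adjusted p = 3.67e-18) and 0.76 (SE 0.053, adjusted p = 7.31e-15). P4HA1, the catalytic subunit of collagen prolyl hydroxylase, was at 88.0, 85.9 and 84.2 CPM in pLKO-GFP, 181, 178 and 178 under shAHR#2, and 133, 130 and 134 under shAHR#3. Its groups were separate, with rises of 1.06 (SE 0.034, adjusted p = 8.06e-26) and 0.62 (SE 0.034, adjusted p = 3.92e-18), although its neighbours on chromosome 10 had medians of -0.43 and -0.26.

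The mitophagy receptors BNIP3 and BNIP3L mark mitochondria for removal. BNIP3 was at 105, 114 and 115 CPM in pLKO-GFP, 248, 245 and 241 under shAHR#2, and 141, 136 and 124 under shAHR#3. It rose by 1.14 (SE 0.038, adjusted p = 3.26e-25) and 0.27 (SE 0.039, adjusted p = 3.36e-07). BNIP3L rose by 0.86 and 0.38 (adjusted p = 6.47e-22 and 3.09e-11), with 124 to 130 CPM in pLKO-GFP, 224 to 236 under shAHR#2 and 159 to 178 under shAHR#3. KDM3A, a histone demethylase induced by HIF, rose by 0.49 and 0.36 (adjusted p = 2.29e-12 and 5.38e-09).

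Neither of the carbonic anhydrases, which regulate pH at the cell surface, rose with both constructs. CA9, a classical marker of hypoxic tumours, was at 1.30, 1.80 and 1.06 CPM in pLKO-GFP (21 to 36 reads), 2.84, 2.70 and 2.15 under shAHR#2, and 1.75, 1.38 and 1.27 under shAHR#3. It rose by 0.88 under shAHR#2 (SE 0.25, adjusted p = 0.00203) and was at 0.07 under shAHR#3 (SE 0.27, adjusted p = 0.834), in libraries that overlapped the control. ARHGEF39 overlaps 35.7% of its exon bases on the opposite strand, and was at 10.9 CPM in pLKO-GFP. CA12 was at 69.2, 69.2 and 70.4 CPM in pLKO-GFP, 47.6, 47.1 and 45.6 under shAHR#2, and 91.8, 94.5 and 88.0 under shAHR#3. It fell by 0.57 under shAHR#2 (SE 0.045, adjusted p = 5.40e-14) and rose by 0.39 under shAHR#3 (SE 0.040, adjusted p = 1.21e-10).

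Several hypoxia-inducible genes did not pass the test. P4HA2, the other collagen hydroxylase subunit, was at 0.08 and 0.01 (adjusted p = 0.142 and 0.877). MXI1, a repressor that binds MAX, was at 0.01 and 0.04 (adjusted p = 0.909 and 0.711). ANKRD37, a HIF target with ankyrin repeats, was at -0.42 and -0.24 (adjusted p = 0.101 and 0.359), with 40 to 64 reads in a control library; UFSP2 (31.1 CPM) overlaps 40.3% of its exon bases on the opposite strand. DDIT4, the mTORC1 inhibitor REDD1, was at 0.01 under shAHR#2 (adjusted p = 0.868) and rose by 0.25 under shAHR#3 (adjusted p = 5.57e-08). ANKRD37 passed without pLKO-GFP replicate 1 or shAHR#2 replicate 3 (-0.56 and -0.61, adjusted p = 0.0392 and 0.0380), and P4HA2 passed without shAHR#2 replicate 3 (0.14, adjusted p = 0.0177).

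The constructs were also compared directly, to ask where their effects on these genes differed. Relative to shAHR#2, 7 of the 42 genes (16.7%) stood higher in shAHR#3 cells and 27 (64.3%) stood lower, against 42.3% called among all genes tested, 21.9% higher and 20.4% lower. The widest differences below were picked for their size, so their p-values are descriptions. At least 1 on the log2 scale separated the constructs in 2 of the 42, against 3.71% of all genes. NDRG1 was lower under shAHR#3 by -1.19 (SE 0.028, adjusted p = 5.62e-29) and BNIP3 by -0.87 (SE 0.037, adjusted p = 3.59e-21). EPAS1 was higher by 1.08 (SE 0.035, adjusted p = 1.75e-24), CA12 by 0.97 (SE 0.043, adjusted p = 2.03e-20) and SLC2A3 by 0.62 (SE 0.048, adjusted p = 2.03e-13). PFKFB4, PDK1 and EGLN3 were lower under shAHR#3 by -0.73, -0.70 and -0.68 (adjusted p = 8.38e-14, 1.56e-12 and 1.21e-06). HIF1A differed by -0.07 (SE 0.025, adjusted p = 0.0272), and that call was lost with no filter on low counts and without shAHR#2 replicate 1 or 2 or shAHR#3 replicate 1 (adjusted p from 0.0648 to 0.139). AHR was 0.19 higher under shAHR#3 than under shAHR#2 (adjusted p = 0.00283), and its part in these differences was not tested.

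**Figure D4:**
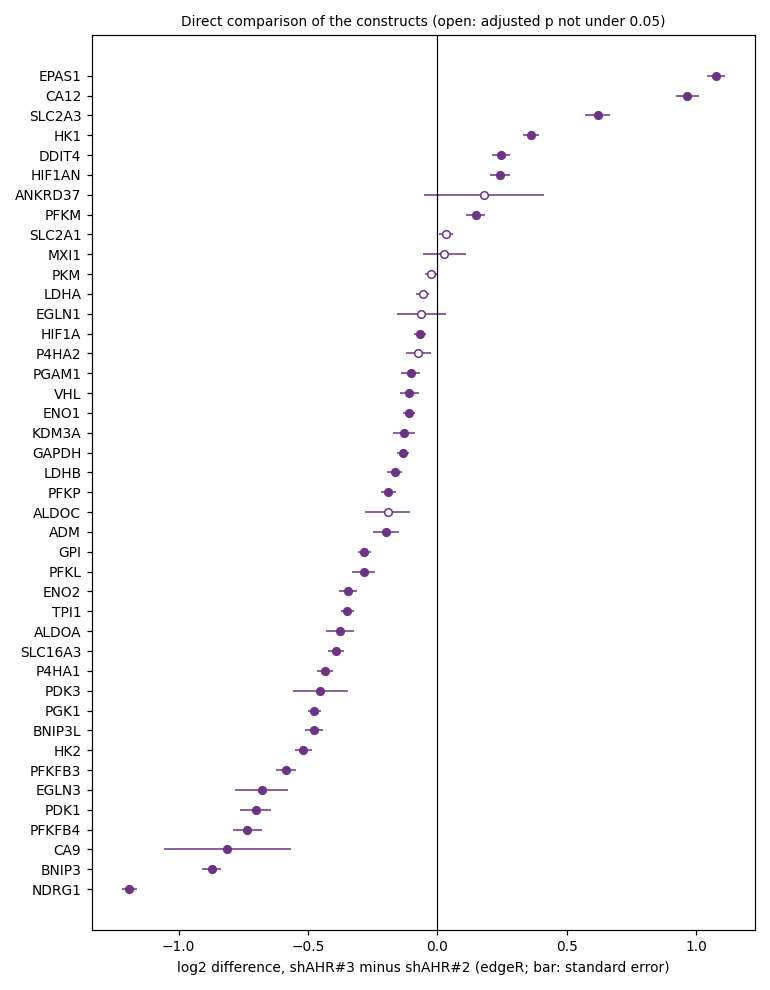
Log2 difference between shAHR#3 and shAHR#2 for the 42 tested genes, ordered by size (bars, standard errors from edgeR; open points, adjusted p not under 0.05). The difference runs from -1.19 for NDRG1 to 1.08 for EPAS1, and 27 filled points lie below 0 against 7 above it.

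Each gene was set beside the median of the 50 tested genes on each side of it. Chromosome 10 carries 9 of the 43 genes. Around HK1, P4HA1 and DDIT4 the neighbours' medians were -0.47, -0.43 and -0.44 under shAHR#2 and -0.30, -0.26 and -0.26 under shAHR#3. P4HA1 rose against that background, and BNIP3, farther along the chromosome, rose against neighbours with medians of -0.35 and -0.15. Relative to their neighbours, P4HA1 and BNIP3 rose by 1.49 each under shAHR#2 and by 0.88 and 0.41 under shAHR#3. Relative to their neighbours, EGLN3 stood at 1.95, ALDOC at 1.71, PFKFB4 at 1.52 and NDRG1 at 1.43 under shAHR#2, and at 1.37, 1.54, 0.79 and 0.29 under shAHR#3. Other called genes also moved by more than 1.5 times when set against their neighbours. TPI1 stood at 0.45 and 0.13, HIF1A at 0.31 and 0.35, and HIF1AN at -0.17 and -0.07. PGK1 stood at 0.84, ENO2 at 0.25 and PFKM at -0.32 under shAHR#2, and DDIT4 at 0.51, PGAM1 at -0.07 and PDK3 at -0.09 under shAHR#3.

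**Figure D5:**
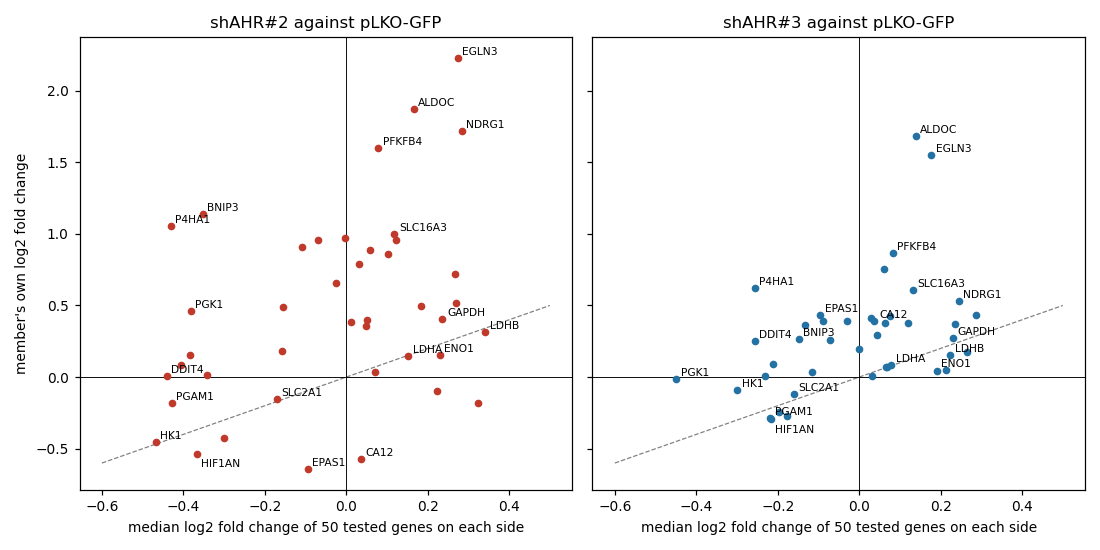
Log2 fold change of each tested gene (vertical axis) against the median of the 50 tested genes on each side of it (horizontal axis), for shAHR#2 (left) and shAHR#3 (right); the dashed line marks equal values. HK1, SLC2A1, LDHA and LDHB lie near the dashed line under shAHR#2, whereas EGLN3, ALDOC, PFKFB4, NDRG1, BNIP3 and P4HA1 lie well above it.

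A further 99 glycolysis, pyruvate and hypoxia genes were listed by function, with earlier results of these data known, and 80 of them were tested. The hypoxia-inducible ones among them (38 tested) were higher in 28 and lower in 3 under shAHR#2 and higher in 25 and lower in 3 under shAHR#3, with medians of 0.73 and 0.36. As shares these are 73.7% higher and 7.89% lower, against 32.6% and 33.2% of all genes tested, and 65.8% and 7.89%, against 26.9% and 27.5%. TMEM45A, a transmembrane protein gene, rose by 2.06 and 1.07 (adjusted p = 4.61e-17 and 2.08e-08), and the nuclear receptor gene RORA rose by 3.02 and 2.26 from 8 to 13 reads in a control library (adjusted p = 1.01e-11 and 7.51e-08). RCOR2, a corepressor gene with 5, 0 and 2 control reads, rose by 3.30 and 2.88 (adjusted p = 8.37e-07 and 2.18e-05). VEGFA, the best known angiogenic HIF target, was at -0.03 under shAHR#2 (adjusted p = 0.460) and fell by 0.80 under shAHR#3 (adjusted p = 1.69e-19); it was named after its values were seen.

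Of 16 tested genes of lactate and pyruvate handling outside the main list, 2 were higher and 11 lower under shAHR#2, and 3 were higher and 8 lower under shAHR#3, with medians of -0.24 and -0.16. As shares, 12.5% were higher and 68.8% lower under shAHR#2 (all genes tested, 32.6% and 33.2%), and 18.8% and 50% under shAHR#3 (all genes, 26.9% and 27.5%). PDP1, the phosphatase that reactivates pyruvate dehydrogenase, fell by 0.87 and 0.90 (adjusted p = 4.72e-22 and 2.42e-22). Of 13 other glycolysis genes, 3 were higher and 6 lower under shAHR#2, and 2 were higher and 5 lower under shAHR#3. The lower shares were 46.2% and 38.5%, against 33.2% and 27.5% of all genes tested. HKDC1, a hexokinase relative, fell by 2.82 and 2.25 (adjusted p = 6.93e-13 and 2.10e-11), and PGM2, of the phosphoglucomutase family, by 1.33 and 1.08 (adjusted p = 6.25e-24 and 2.29e-21). Of 13 other HIF regulators, 5 were higher and 3 lower under shAHR#2, and 4 were higher and 2 lower under shAHR#3. The higher shares, 38.5% and 30.8%, lie near the 32.6% and 26.9% of all genes tested.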

How the data were processed

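Poly-A selected, strand-marking libraries were sequenced from a single end, and the reads were aligned to GRCh38.p13 with STAR; the submitters' processing notes also name FastQC, Subread and featureCounts. The values the authors deposited are raw read counts for each gene, in whole numbers. The strand setting and annotation release are not given in the sources used here.

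From these counts, 14274 of 60649 genes were kept by filterByExpr (minimum count 10, minimum total 15), scaled by TMM and tested with edgeR 4.0.16 (glmQLFit and glmQLFTest; R 4.3.3) in a single model of the 9 libraries with a mean per group. A gene was called where its adjusted p (Benjamini-Hochberg) was under 0.05, and the standard error is the absolute log2 fold change over the root of F. TPM used exon lengths of GENCODE release 44, from which gene positions were also taken. DESeq2 1.42.0 and the other alternatives are given in the closing section. The fit was tested on simulated data.

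The 43 genes, the further lists and the tests were chosen with earlier results of these data known. Values per library are given for GAPDH, HIF1A, EPAS1, LDHA, SLC2A1 and CA9, for up to 6 rises and 6 falls called with both constructs, for the 4 widest differences between constructs and for calls in opposite directions. The 3 largest rises and falls of the further list called with both constructs were named, with AHR and ARNT.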

Additional observations from a re-analysis of the deposited data

Results flagged for a closer look

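The 3 genes below were singled out because each was called in opposite directions against the same controls and the constructs also differed when compared directly by edgeR; the direct comparison is not separate evidence, since the genes were chosen for those calls. EPAS1 was higher with shAHR#3 than with shAHR#2 by 1.08 (adjusted p = 1.75e-24), CA12 by 0.97 (adjusted p = 2.03e-20) and SLC2A3 by 0.62 (adjusted p = 2.03e-13). For each gene all 3 shAHR#2 libraries lay below the control libraries and all 3 shAHR#3 libraries above them. Groups of 3 libraries are too small for a test of outlying samples.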

How the results depend on the processing

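The counts of members called higher and lower stayed within 1.5 times their value under DESeq2, its size factors, both other filters, fits of only the groups compared, an adjusted p under 0.01 and each left-out library, except those lower under shAHR#3, which ranged from 3 to 5 (3 without shAHR#3 replicate 1). Requiring a log2 change of at least 1 left 7 higher and 0 lower under shAHR#2, 2 and 0 under shAHR#3, 1 and 1 between constructs, and 2 in the same direction with both. The replicate numbers were not taken as pairs, because the methods name no pairing. Deviations of samples with the same number were weakly but always positively correlated (0.00314 to 0.0578, every pair below 0.1). They were highest with the own number in 15 of 18, a hint of pairing from the data and not the design. The replicate block left the counts at 27 higher and 8 lower, 27 and 5, and 7 and 27, with 27 called alike.

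Relative to the median of neighbouring genes, 43 log2 values moved by less than the spread between replicates, 72 moved further without turning a called direction, and 11 turned. The direction turned for SLC2A1 (0.0154 under shAHR#2 and 0.0393 under shAHR#3), HK1 (0.0159 and 0.209), PGAM1 (0.249 under shAHR#2), ENO1 (-0.0758 under shAHR#2), ENO2 (-0.0910 under shAHR#3), LDHA (-0.00778 under shAHR#2), LDHB (-0.0260 and -0.0721) and, between constructs, HIF1A (0.0415); the cause was not tested. Leaving out each library in turn turned the sign only of values that no test called: PGK1 under shAHR#3 (-0.0249 to 0.00178), PKM under shAHR#3 (-0.00217 to 0.0225), CA9 under shAHR#3 (-0.0917 to 0.314), ANKRD37 between constructs (-0.0565 to 0.371), P4HA2 under shAHR#3 (-0.00459 to 0.0312), DDIT4 under shAHR#2 (-0.0197 to 0.0397), and MXI1 under shAHR#2 (-0.0248 to 0.0711), under shAHR#3 (-0.00384 to 0.108) and between constructs (-0.0265 to 0.0953). Depth left SLC16A1 (0 to 2 reads) untested, and CA9, ANKRD37 and EGLN3 had 21 to 74 reads in a control library.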
